A study of Mus musculus with 6 samples.

Results

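The miR-378 family was followed through a small-RNA count table from mouse hearts under pressure overload. Its members were taken by name. They were both arms of miR-378a (miR-378a-3p and miR-378a-5p) and the related miRNAs miR-378b, miR-378c and miR-378d, which made 5 of the 1966 miRNA rows of the table. All 5 passed the low-count filter, as did 354 rows in all. The hearts came from 6 male wild-type (WT) mice, 3 that had sham surgery and 3 that had transverse aortic constriction (TAC), a banding of the aorta that raises the pressure against which the left ventricle pumps. Heart tissue was taken 8 weeks after surgery, and total RNA was extracted from it. The sources used here give neither strain nor age. The mice carried the animal numbers 47, 68 and 69 in the sham group and 29, 78 and 81 in the TAC group, and each library is named by that number.

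A miRNA is cut from a hairpin, and the seed at bases 2 to 8 of the mature strand directs it to messenger RNAs, whose translation and stability it lowers. miR-378a lies in an intron of Ppargc1b, which encodes the coactivator PGC-1β of mitochondrial and fatty acid oxidation genes. In the mouse, its 2 arms are known to target Crat, a carnitine acetyltransferase, and Med13, a subunit of the Mediator complex, and mice without it resist diet-induced obesity. In cardiomyocytes miR-378 has been described as a brake on growth signalling through the MAP kinase pathway.

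The mature sequences of miR-378b, miR-378c and miR-378d are shown because so few bases tell them apart. They come from RefSeq on GRCm38.p6 and are written 5′ to 3′ with the seed, bases 2 to 8, in capitals.
miR-378b: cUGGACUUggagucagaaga
miR-378c: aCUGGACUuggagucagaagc
miR-378d: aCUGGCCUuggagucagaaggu
Positions were counted from 1 at the 5′ end of miR-378c. miR-378b starts 1 base later and differs from miR-378c over 20 shared bases by C21A. Its seed is therefore moved by 1 base. miR-378d starts at the same base and differs by A6C and C21G, so that its seed holds a mismatch. miR-378a-3p has 1 mismatch to each of the 3, at position 21 against miR-378b and miR-378c and at position 6 against miR-378d. The seed of miR-378c was shared with miR-378a-3p only, among 1907 rows with a sequence, whereas the seeds of miR-378b, miR-378d and miR-378a-5p were found in no other row.

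The hairpins that carry these 3 mature strands are shown because they differ far more than the strands do. The mature strand is in capitals.
Mir378b: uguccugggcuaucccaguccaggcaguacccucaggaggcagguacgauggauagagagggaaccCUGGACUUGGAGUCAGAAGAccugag
Mir378c: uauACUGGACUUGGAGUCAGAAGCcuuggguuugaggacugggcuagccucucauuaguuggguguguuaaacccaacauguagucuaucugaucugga
Mir378d: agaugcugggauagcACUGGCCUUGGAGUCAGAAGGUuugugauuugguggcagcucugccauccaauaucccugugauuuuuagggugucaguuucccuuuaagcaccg
The Mir378b hairpin lies at chr11:88352773-88352864 on the plus strand, the Mir378c hairpin at chr14:46954830-46954928 on the minus strand and the Mir378d hairpin at chr10:126710282-126710391 on the minus strand (GRCm38, which is mm10). The mature strand sits in the 3′ arm of Mir378b, at bases 67 to 86, and in the 5′ arm of Mir378c, at bases 4 to 24, and of Mir378d, at bases 16 to 37. RNAfold gave a minimum free energy of -38.5 kcal/mol for the 66-nt Mir378a hairpin, or -0.583 per nucleotide. The energies were -31.1 kcal/mol for the 92-nt Mir378b hairpin (-0.338 per nucleotide), -27.0 for the 99-nt Mir378c hairpin (-0.273) and -35.0 for the 110-nt Mir378d hairpin (-0.318). In the GENCODE M21 annotation miR-378a lies in intron 1 of Ppargc1b on the same strand. miR-378b lies in an intron of Msi2 and miR-378c in an intron of Samd4, both on the strand opposite to that gene, and miR-378d lies outside any other annotated gene.

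The total count per library ran from 1818725 to 3509001 in the sham group and from 1226187 to 1795831 in the TAC group, so every TAC library was shallower than every sham library. Levels are given as counts per 1000000 counts of a library (CPM) after scaling by TMM factors, which were 1.095 to 1.128 in the sham libraries and 0.868 to 0.921 in the TAC libraries. In the edgeR quasi-likelihood fit 108 of the 354 tested rows had a Benjamini-Hochberg adjusted p under 0.05, which is 30.5% of them. Of these, 68 were higher in TAC (19.2%) and 40 lower (11.3%). Without TAC mouse 78 the number called was 69, and without TAC mouse 81 it was 64. The TMM-scaled CPM of the groups did not overlap in 182 rows, or 51.4%. Each library is from 1 mouse. The edgeR p-values set the group difference against the variation between mice, estimated with information shared across rows.

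Both arms of miR-378a and miR-378c rose after TAC, by 1.46-fold to 1.602-fold. miR-378b was 1.18-fold higher without passing the test, and miR-378d stood at the same mean in both groups. Thus 3 of 5 rows were called higher, beside 19.2% of all tested rows, none was called lower, and 2 did not pass. The median log2 fold change of the 5 was 0.55, beside 0.07 over all tested rows. The miR-378c row repeated miR-378a-3p, as given below, so the 5 are not 5 independent measurements. In 4 of the 5 the TMM-scaled values of the groups did not overlap, beside 51.4% of all tested rows.

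miR-378a-3p, the strand that accumulates in the heart, is annotated at chr18:61397838-61397858 on the minus strand (mm10). Its level was 22409, 26231 and 24633 CPM in sham mice 47, 68 and 69 and 33242, 35721 and 38257 CPM in TAC mice 29, 78 and 81. Every TAC heart stood above every sham heart, and the lowest TAC value was 1.27-fold the highest sham value. The mean rose from 24424 ± 1920 to 35740 ± 2507 CPM (SD, n = 3 each). The log2 fold change was 0.55 ± 0.10 (SE), with a 95% interval of 0.32 to 0.78 and an edgeR adjusted p of 0.00468. The change was moderate in size, with 69 of the 354 tested rows showing a larger log2 fold change.

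miR-378a-5p comes from the other arm of the same hairpin, at chr18:61397875-61397896. It was counted at 1423, 1692 and 1522 CPM in the sham hearts and at 2064, 2778 and 2586 CPM in the TAC hearts, again without overlap. TAC mouse 29 was the lowest of its group for both arms. The mean rose from 1546 ± 136 to 2476 ± 369 CPM (SD, n = 3 each), a log2 fold change of 0.68 ± 0.12 (SE; 95% interval 0.40 to 0.96; edgeR adjusted p = 0.00468).

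**Figure D1:**
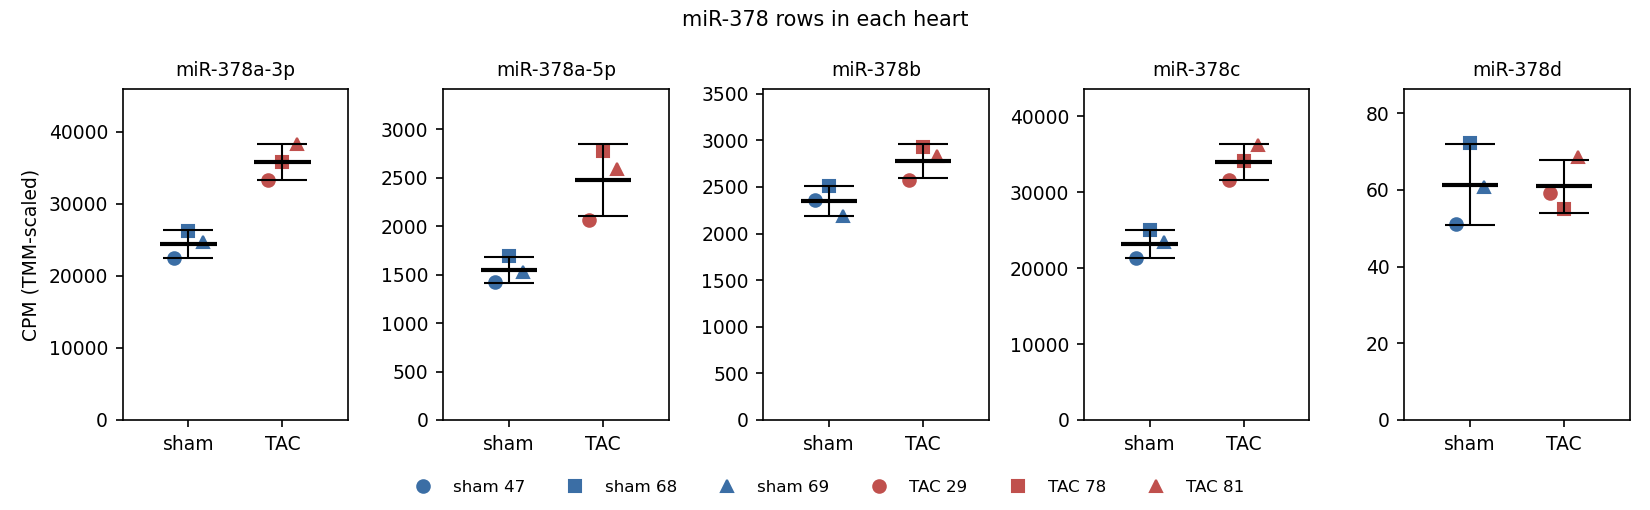
TMM-scaled CPM (y axis, linear, from 0, its own range in each panel) of the 5 miR-378 rows in each of 3 sham and 3 TAC hearts. Each point is 1 mouse, the thick bar is the group mean and the thin bars are 1 SD. The groups are apart for miR-378a-3p, miR-378a-5p, miR-378b and miR-378c and overlap for miR-378d.

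The arms are cut from 1 hairpin, and their ratio, like any ratio within a library, does not depend on scaling between libraries. Per nucleotide, miR-378a-5p stood at 6.06%, 6.16% and 5.90% of miR-378a-3p in the sham hearts and at 5.93%, 7.42% and 6.45% in the TAC hearts. The groups overlapped, because TAC mouse 29 lay inside the sham range. The log2 difference of the ratio was 0.12 (two-sided exact permutation test, p = 0.3, 0.433 after adjustment over 13 ratios). With 3 mice against 3, the smallest p this test can give is 0.1.

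miR-378c is annotated at chr14:46954905-46954925 on the minus strand and has the seed of miR-378a-3p. Its level was 21285, 24977 and 23378 CPM in the sham hearts and 31541, 34058 and 36258 CPM in the TAC hearts, the same order of mice as for miR-378a-3p. The mean went from 23213 ± 1851 to 33953 ± 2361 CPM (SD, n = 3 each), with a log2 fold change of 0.55 ± 0.10 (SE; 95% interval 0.32 to 0.78; edgeR adjusted p = 0.00468). These values nearly repeat those of miR-378a-3p. Per nucleotide, miR-378c was at 94.99%, 95.2% and 94.9% of miR-378a-3p in the sham hearts and at 94.9%, 95.3% and 94.8% in the TAC hearts. The log2 of this ratio had an SD of 0.0033 over the 6 libraries, less than the 0.0088 that counting alone would give for separate reads. The miR-378c row thus gives no second measurement, and its level cannot be told apart from that of miR-378a-3p. Whether reads were counted in both rows was not tested.

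miR-378b is annotated at chr11:88352839-88352858 on the plus strand. Its level was 2357, 2506 and 2187 CPM in the sham hearts and 2577, 2928 and 2828 CPM in the TAC hearts. The groups did not overlap, although the lowest TAC value was close to the highest sham value. Sham hearts averaged 2350 ± 159 CPM and TAC hearts 2777 ± 181 CPM (SD, n = 3 each). The log2 fold change of 0.24 ± 0.09 (SE; 95% interval 0.04 to 0.44) did not pass the test (edgeR adjusted p = 0.0664, unadjusted p = 0.0246). Relative to miR-378a-3p, miR-378b was lower in every TAC heart than in every sham heart, at 11.05%, 10.03% and 9.32% per nucleotide in sham and 8.14%, 8.61% and 7.76% in TAC. The log2 difference of this ratio was -0.31 (two-sided exact permutation test, p = 0.1, adjusted 0.217), which is the smallest p that 3 against 3 can give. miR-378b has 1 mismatch to miR-378a-3p, at position 21. Whether reads of miR-378a-3p were counted in the miR-378b row was not tested, so this ratio may not compare separate miRNAs.

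miR-378d is annotated at chr10:126710355-126710376 on the minus strand. It was the scarcest member, with 73 to 200 counts per library. Its level was 51.1, 72.3 and 60.7 CPM in the sham hearts and 59.3, 55.1 and 68.6 CPM in the TAC hearts, and the TAC values lay within the sham range. Sham hearts averaged 61.4 ± 10.6 CPM and TAC hearts 61.0 ± 6.91 CPM (SD, n = 3 each). The log2 fold change was -0.01 ± 0.18 (SE; edgeR adjusted p = 0.97501), and its 95% interval of -0.42 to 0.41 allows a change in either direction. At the lowest count, counting error alone was 11.7% of the value, compared with 0.496% for miR-378a-3p. Relative to miR-378a-3p, miR-378d was at 0.218%, 0.263% and 0.235% per nucleotide in sham and 0.170%, 0.147% and 0.171% in TAC. The groups did not overlap in this ratio either, with a log2 difference of -0.55 (two-sided exact permutation test, p = 0.1, adjusted 0.217).

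**Figure D2:**
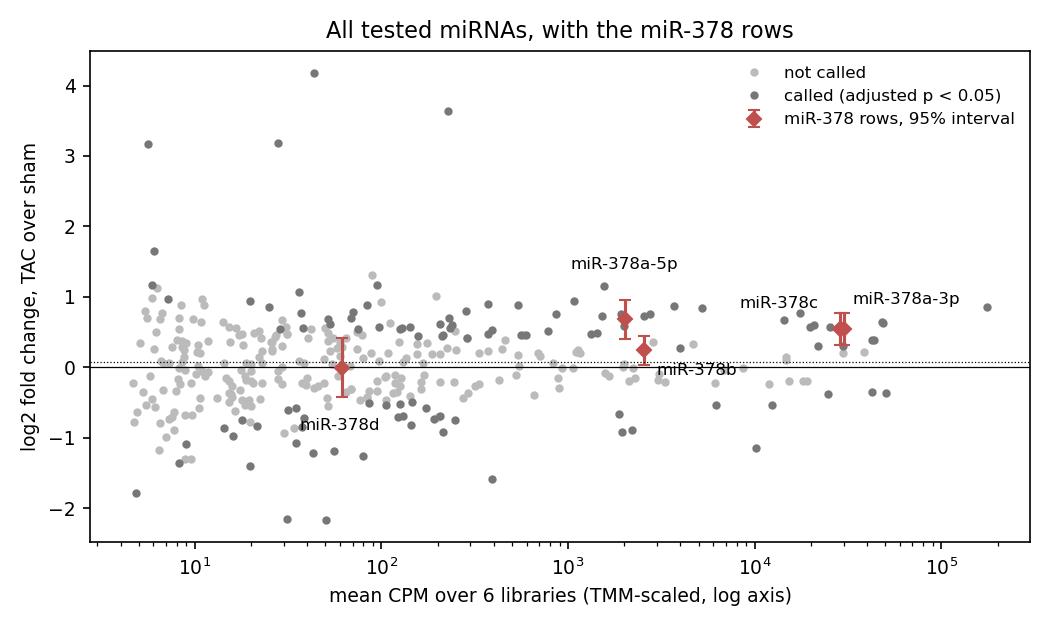
Log2 fold change of TAC over sham (y axis) against mean TMM-scaled CPM in all 6 libraries (x axis, log scale) for the 354 tested rows. Diamonds with 95% intervals are the miR-378 rows, dark points are other rows with an adjusted p under 0.05, and the dotted line is the median of all tested rows, 0.07. miR-378a-3p and miR-378c lie at the same place among the most abundant rows.

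Per nucleotide of one mature strand, the order of the members was the same in all 6 libraries: miR-378a-3p, miR-378c, miR-378b, miR-378a-5p and miR-378d. On that scale miR-378a-3p ranked 10 to 12 among the 1966 rows in the sham hearts and 7 to 10 in the TAC hearts. The length listed in the table adds up all genomic places of a row, which 82 rows have more than 1 of, and with that length miR-378a-3p ranked 6 to 10 and 5 to 6. How reads matching several places were counted is not known, so neither ranking is certain. By strand length miR-378c ranked 12 to 14 in sham and 9 to 11 in TAC. In every library miR-378c stood just below miR-378a-3p, at 94.8% to 95.3% of it per nucleotide. miR-378b ranked 40 to 43 in sham and 38 to 42 in TAC. miR-378a-5p ranked 52 to 54 in sham and 42 to 50 in TAC. miR-378d ranked 169 to 184 and 170 to 188.

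Together the 5 rows held 5.30%, 6.08% and 5.84% of all counts in the sham hearts and 6.40%, 6.86% and 6.94% in the TAC hearts. The share averaged 5.74% ± 0.400 over the sham hearts and 6.73% ± 0.293 over the TAC hearts (SD, n = 3 each), 0.994 percentage points higher in TAC (two-sided exact permutation test, p = 0.1). The Wilson 95% intervals of these shares, which cover counting error only, reached at most 0.0450 percentage points to either side. Any read listed in both the miR-378a-3p and the miR-378c row enters this sum more than once. miR-378a-3p alone held 2.72% ± 0.195 in sham and 3.21% ± 0.133 in TAC.

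The size of the difference depended on the scaling. On library totals the level of miR-378a-3p was 24981, 28736 and 27796 CPM in the sham hearts and 30612, 32423 and 33212 CPM in the TAC hearts. The groups were still apart, beside 46.6% of all tested rows, but the log2 fold change was 0.24 and the edgeR adjusted p 0.0792. miR-378c gave the same values, 0.24 and 0.0792. miR-378a-5p remained past the threshold at 0.37, and miR-378b turned to -0.07. On library totals the median of all tested rows moved by -0.31, from 0.07 to -0.23. Measured against that median, the log2 difference of miR-378a-3p was 0.48 with TMM and 0.47 on library totals, and that of miR-378a-5p was 0.61 with both. Relative to the median, miR-378b was at 0.17 and miR-378d at -0.08 with both scalings. A change of scaling moves all rows by nearly the same amount, so differences from the median stay nearly fixed by construction. These differences are therefore no check on the calls lost on library totals.

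**Figure D3:**
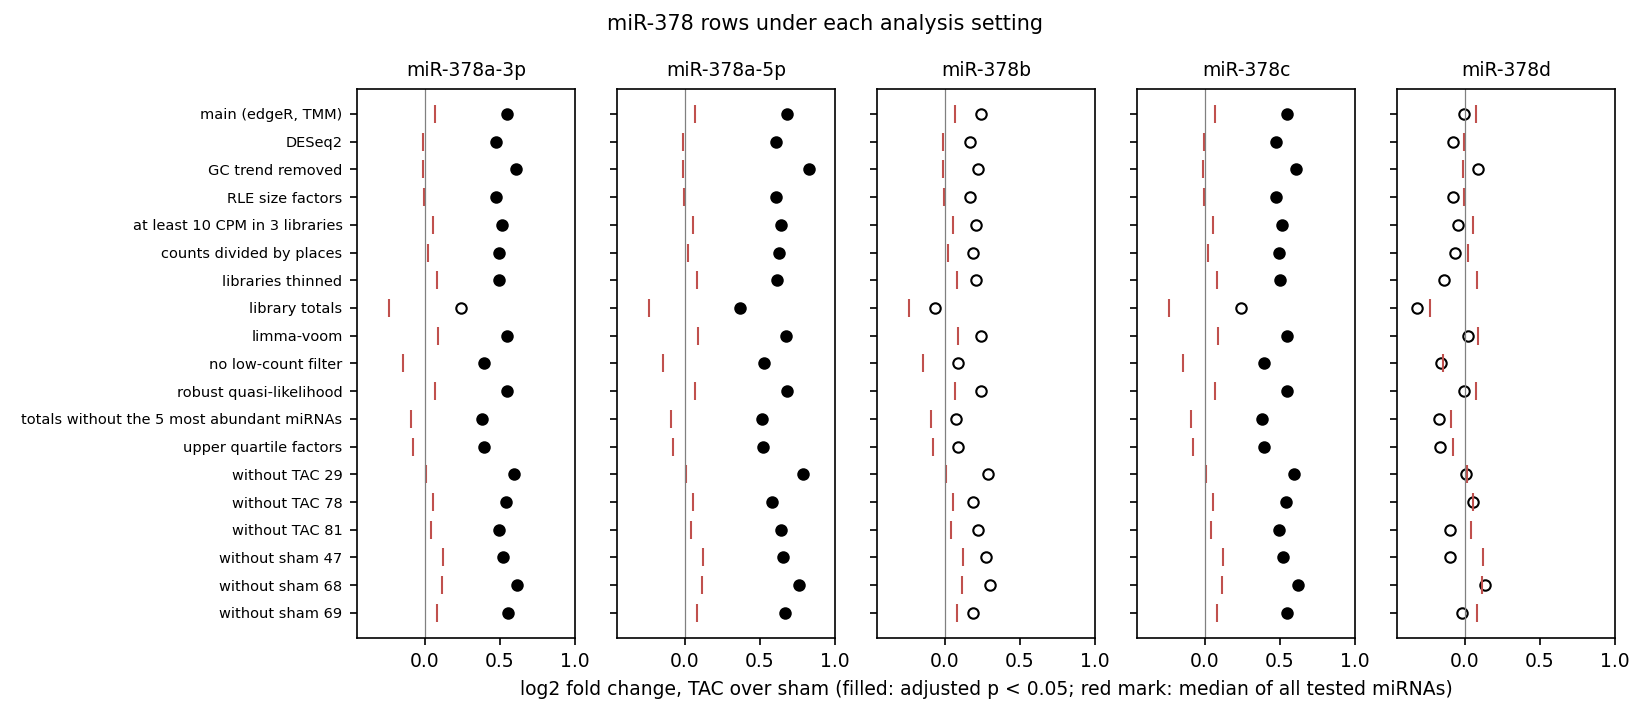
Log2 fold change of TAC over sham (x axis) of each miR-378 row under the TMM-scaled edgeR fit and 18 alternatives (y axis); summing near-identical rows is not drawn. Filled points have an adjusted p under 0.05, open points do not, and red marks give the median of all tested rows. miR-378a-5p is filled throughout, and miR-378a-3p and miR-378c are open on library totals only.

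The order of the 6 libraries by miR-378a-3p level was exactly the reverse of their order by total count, with either scaling. Depth and group cannot be fully told apart here, because the TAC libraries were the shallower ones. The pair closest in depth was sham mouse 68, with 1818725 counts, and TAC mouse 29, with 1795831. Between them miR-378a-3p was 1.27-fold higher in the TAC heart after TMM scaling and 1.07-fold higher on library totals. When all libraries were thinned to the smallest total, the log2 fold change was 0.50 for miR-378a-3p (edgeR adjusted p = 0.00715) and 0.62 for miR-378a-5p (adjusted p = 0.0068). Thinning evens out counting noise but keeps the proportions within each library, so it cannot separate depth from group.

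**Figure D4:**
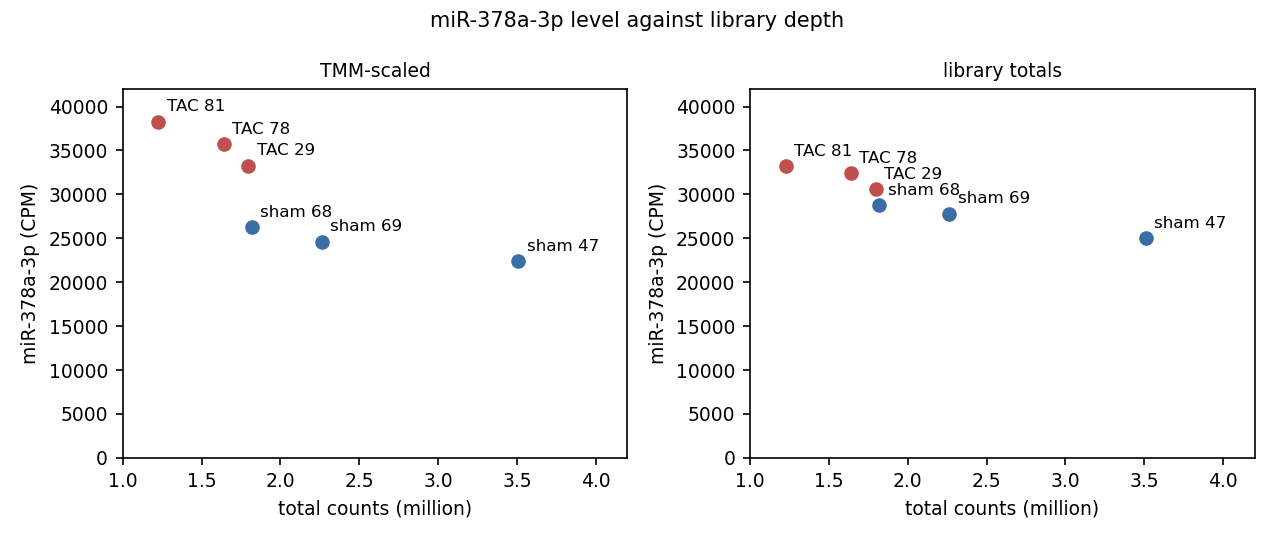
Level of miR-378a-3p in CPM (y axis, linear, from 0) against total counts per library (x axis), TMM-scaled on the left and on library totals on the right. Each point is 1 of 6 hearts. The level falls with depth across all 6, and TAC mouse 29 and sham mouse 68, nearly equal in depth, are 1.27-fold apart on the left and 1.07-fold on the right.

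All 9 cardiomyocyte markers were set against miR-378a-3p in the same libraries, per nucleotide of one mature strand. The markers did not share a direction. miR-1a-3p, the most abundant row of the table, was at 487%, 517% and 461% of miR-378a-3p in the sham hearts and at 623%, 559% and 632% in the TAC hearts, a log2 difference of 0.31. miR-499-5p, from an intron of the myosin gene Myh7b, was at 11.9%, 9.48% and 11.02% in sham and 14.1%, 14.1% and 12.3% in TAC, a difference of 0.33. The differences were 0.30 for miR-30e-5p and 0.23 for miR-30a-5p. In these 4 the groups did not overlap, and each had p = 0.1 in the two-sided exact permutation test (adjusted 0.217). In the other 5 the groups overlapped, with differences of 0.40 for miR-133a-5p, 0.07 for miR-133a-3p, 0.01 for miR-208a-3p, -0.35 for miR-30d-5p and -0.58 for miR-208b-3p, the scarcest marker. How many of all tested rows do not overlap in such a ratio was not computed. The 4 without overlap are therefore not read as particular to these markers. With a GC trend removed, the difference turned to -0.27 for miR-1a-3p, -0.11 for miR-499-5p and -0.36 for miR-208a-3p, and was 0.05 for miR-30a-5p and 0.03 for miR-30e-5p.

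**Figure D5:**
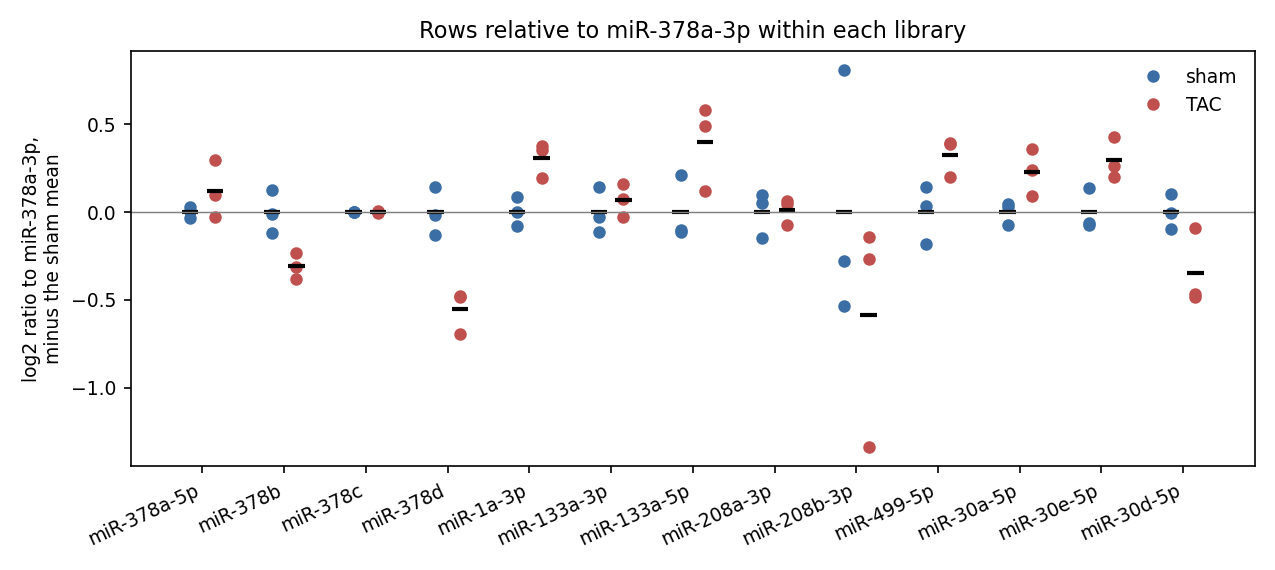
Log2 ratio of each named row to miR-378a-3p within the same library, minus the mean of the sham libraries (y axis). Each point is 1 of 3 sham or 3 TAC hearts and bars are group means. The miR-378c points lie on the zero line, miR-378b and miR-378d lie lower in TAC, and the 9 cardiomyocyte markers lie on both sides.

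Among 292 other rows with a mean of at least 10 CPM and no near-identical sequence, 5 were named for the highest Pearson r to miR-378a-3p over the 6 libraries. All 6 libraries enter from both groups, so a shared difference between the groups raises r, and the values are a description. They were miR-185-5p (r = 0.991), miR-185-3p (0.988), miR-1a-3p (0.985), miR-192-5p (0.984) and miR-181c-3p (0.981), and 45 of the 292 rows had r above 0.9. miR-185 is cut from 1 hairpin, and its arms rose by 0.52 ± 0.11 for miR-185-5p and 0.80 ± 0.16 for miR-185-3p (log2 ± SE, edgeR adjusted p = 0.0107 and 0.0068). miR-1a-3p, which restrains growth of muscle cells, rose from 125091 ± 14846 to 226519 ± 23659 CPM (log2 fold change 0.86 ± 0.14, edgeR adjusted p = 0.00316). With a GC trend removed its difference was 0.34 and no longer passed (adjusted p = 0.068). miR-192-5p rose from 379 ± 26.9 to 700.2 ± 27.8 CPM (0.89 ± 0.11, adjusted p = 0.000901). miR-181c-3p rose from 27.2 ± 1.28 to 46.6 ± 6.32 CPM (0.77 ± 0.16, adjusted p = 0.00928), and both it and miR-185-5p failed the test on library totals and with no low-count filter. Within the family, r to miR-378a-3p was 0.968 for miR-378a-5p, 0.882 for miR-378b and 0.258 for miR-378d.

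Of 12 rows within 1 Mb of the Mir378a hairpin, 4 were tested, all from the miR-143 and miR-145a cluster of smooth muscle, about 250 kb away. miR-145a-3p rose from 260 ± 19.9 to 483 ± 56.5 CPM (log2 fold change 0.89 ± 0.13, edgeR adjusted p = 0.00176). miR-143-3p rose from 37819 ± 4375 to 58934 ± 1568 CPM (0.64 ± 0.11, adjusted p = 0.00406). miR-143-5p rose by 0.47 ± 0.12 (adjusted p = 0.0211), a call lost in 8 of 19 alternatives. Among them were leaving out TAC mouse 78 (adjusted p = 0.0863), TAC mouse 81 (0.0764), sham mouse 68 (0.0577) or sham mouse 69 (0.0842). miR-145a-5p, at 1017 ± 87.6 CPM in sham and 1179 ± 88.2 CPM in TAC, did not pass (0.21 ± 0.10, adjusted p = 0.144). The 8 untested neighbours had at most 15 counts in a library.

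Other miRNAs known for roles in energy metabolism did not move in 1 direction. Of 29 on the list, 28 were in the table and 26 were tested, of which 10 were higher (beside 19.2% of all tested rows), 3 lower (beside 11.3%) and 13 did not pass. Their median log2 fold change was -0.00, beside 0.07 over all tested rows. On library totals 2 were higher and 8 lower, with a list median of -0.31 beside -0.23 over all tested rows. Lower calls also outnumbered higher calls over all tested rows on that scaling, and the split is given in the closing section. The 10 higher became 5 without TAC mouse 29 or without sham mouse 69, and 6 without TAC mouse 78 or without TAC mouse 81. Over all tested rows the number called also fell with 1 mouse left out, from 108 to between 64 and 83. Of the 10 higher, miR-22-3p lost its call in 18 of 19 alternatives, miR-335-5p in 14 of 19, miR-29b-3p in 11 of 19 and miR-29c-3p in 11 of 18. The 8 with the smallest p included miR-499-5p, which rose from 2619 ± 117 to 4811 ± 189 CPM (log2 fold change 0.88 ± 0.08, edgeR adjusted p = 0.00044), and miR-143-3p, given above. miR-30c-5p rose by 0.67 ± 0.12 (adjusted p = 0.00486). On library totals its difference was 0.36 and did not pass (edgeR adjusted p = 0.0595). miR-16-5p (0.52 ± 0.12, adjusted p = 0.0125) and miR-208a-3p, from an intron of the myosin gene Myh6 (0.56 ± 0.13, adjusted p = 0.0136), rose with calls lost in 4 of 19 alternatives each. For miR-16-5p these included leaving out TAC mouse 29 (0.47, adjusted p = 0.0505) and TAC mouse 81 (0.48, 0.0543). The 3 that fell were miR-214-3p at -1.58 ± 0.18 (adjusted p = 0.000901), miR-199a-5p at -0.89 ± 0.16 (0.00419) and the hypoxia-responsive miR-210-3p at -0.73 ± 0.17 (0.0133). miR-103-3p and miR-107-3p, which lie in introns of pantothenate kinase genes, both stood at -0.01 and did not pass. The list holds near-identical rows, so its members are not all separate measurements. With such rows summed, 21 were tested, of which 8 were higher and 3 lower. The split over all tested rows in that fit is not given here. miR-107-3p was then no longer a row of its own, so it and miR-103-3p are not read as separate results.

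In bulk tissue, fewer cells of a type and less RNA per cell cannot be told apart, and marker miRNAs of several cell types moved with the groups. The counts below that name no other setting stand beside 19.2% of all tested rows called higher and 11.3% called lower. For library totals and with a GC trend removed, the split over all tested rows is given in the closing section. Of 9 cardiomyocyte markers, 7 rose and 2 did not pass, miR-30d-5p and miR-208b-3p. On library totals, and with a GC trend removed, 5 rose. Their summed level was 192180 to 229922 CPM in sham and 332414 to 387413 CPM in TAC. Both skeletal muscle markers rose, with summed levels of 14887 to 18483 CPM in sham and 22046 to 28702 CPM in TAC, and neither passed on library totals. Most of that sum was miR-133b-3p, at 14714 to 18301 CPM in sham and 21755 to 28401 CPM in TAC. With near-identical rows summed, 1 of these 2 and 7 of the 9 cardiomyocyte markers were still tested. The markers are therefore not all separate measurements. miR-133b-3p and the cardiomyocyte marker miR-133a-3p had log2 fold changes of 0.60 and 0.62 and the same order of mice. Whether they share reads was not tested, so miR-133b-3p is not read as a separate skeletal muscle result. Of 4 smooth muscle markers 3 rose, with sums of 34626 to 43244 CPM in sham and 59519 to 62551 CPM in TAC. All 5 fibroblast markers fell, from sums of 26115 to 38228 CPM in sham to 17046 to 19668 CPM in TAC. They are miR-21a-5p and both arms of miR-199a and of miR-214, so they are not 5 separate measurements. Of 6 markers of brown fat and adipose tissue, where miR-378 is also abundant, 4 were tested, 2 fell and none rose, with sums of 2057 to 3199 CPM in sham and 1503 to 1607 CPM in TAC. The 2 that fell were both arms of miR-455, and miR-455-3p, at 2551 ± 597 CPM in sham and 1343 ± 32.8 CPM in TAC, made up most of the sum. miR-365-3p (log2 fold change 0.43) and miR-193b-3p (0.28) did not pass, and the miR-365-3p groups did not overlap. Of 7 leukocyte markers 6 were tested and 2 rose (1117 to 1508 CPM in sham, 1509 to 1636 CPM in TAC), and of 4 erythroid markers 3 were tested and 1 rose (999 to 1164 CPM in sham, 1641 to 3062 CPM in TAC). The 5 fibroblast markers that fell became 4 when any mouse but sham mouse 69 was left out, and with near-identical rows summed. The 3 smooth muscle markers became 2 without TAC mouse 78, TAC mouse 81, sham mouse 68 or sham mouse 69. The 2 leukocyte markers became 1 when any mouse but sham mouse 47 was left out. The 2 that fell in the fat list became 1 without TAC mouse 29, TAC mouse 81, sham mouse 47 or sham mouse 68. The number called over all tested rows also fell with 1 mouse left out, from 108 to between 64 and 83. The part of these cell types in the miR-378 result was not tested.

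The defining markers miR-126a-3p and miR-126a-5p of endothelium, miR-142a-3p of leukocytes and miR-486a-5p of red cells were listed at 0 in every library, as was miR-338-3p of the metabolism list. Each of these rows overlaps 1 row on the opposite strand, and whether that bears on the zeros was not tested. These rows are therefore not read as absence. No miR-378 row overlaps an opposite-strand row of the table, although GENCODE places a miRNA gene, Gm25301, opposite miR-378a.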

How the data were processed

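Small RNA from 6 mouse hearts was analysed, 3 sham and 3 TAC, grouped by the treatment in the labels. The authors deposited 1 table of raw counts per mature miRNA, whole numbers with no normalization, with coordinates and lengths, per the file headers. All 6 value columns were matched to samples by animal number, and 0 were left over. The submitters' processing notes name the build mm10 and the tools HISAT2, StringTie and DESeq2 with no role or version. No source used here gives the counting program, the trimming, the strand setting or the treatment of reads that match several rows.

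From the deposited counts, edgeR 4.0.16 in R 4.3.3 was fitted to the whole table with TMM factors, filterByExpr and the quasi-likelihood F-test, with Benjamini-Hochberg adjustment over all 354 tested rows and a threshold of 0.05. The standard error is the log2 fold change divided by the square root of F. Ratios to miR-378a-3p were taken within a library and divided by the length of one mature strand. Shares and ratios were compared by two-sided exact permutation tests over the libraries. The edgeR script was checked on simulated data. Alternatives used limma 3.58.1 and DESeq2 1.42.0 among others. Hairpins were folded with RNAfold 2.7.2.

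The named miRNAs were the 5 members, the 5 most like miR-378a-3p (log2 CPM, prior count 2), every tested row within 1 Mb, and up to 8 called miRNAs of the metabolism list by smallest p. Other miRNAs of the metabolism and marker lists, and the ratios to miR-378a-3p, were named after their values were seen. The members and lists were chosen with earlier results of these data known.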

Additional observations from a re-analysis of the deposited data

How the results depend on the processing

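Under 19 alternatives the log2 fold change of miR-378a-5p stayed past the threshold (0.37 to 0.83). That of miR-378a-3p and of miR-378c passed in 18 of 19 each, failing on library totals (0.24). miR-378b turned to -0.067 on library totals and passed at 0.55 when the 4 near-identical rows were summed. miR-378d turned positive with a GC trend removed (0.0867), with limma-voom (0.0202) and with those rows summed (0.55, the value of the sum). The cause was not tested. Leaving out 1 mouse gave 0.49 to 0.62 for miR-378a-3p, 0.58 to 0.79 for miR-378a-5p, 0.19 to 0.30 for miR-378b, 0.50 to 0.62 for miR-378c and -0.10 to 0.14 for miR-378d, the last with both signs. It gave -0.0031 to 0.0012 for the miR-378c ratio, with both signs, and -0.0624 to 0.0604 for that of miR-208a-3p. With the GC trend removed the ratios of miR-1a-3p (-0.271), miR-499-5p (-0.11) and miR-208a-3p (-0.355) turned negative. miR-22-3p turned to -0.0304 on library totals. The count of called rows, 108, was 64 to 83 with 1 mouse left out; it was 69 without TAC mouse 78 and 64 without TAC mouse 81. The split into higher and lower, 68 and 40, was 25 and 102 on library totals, 50 and 56 with RLE factors, 41 and 63 with the upper quartile, 43 and 72 on totals without the 5 most abundant rows, 42 and 65 with no low-count filter, 51 and 52 with counts divided by genomic places, and 59 and 50 with DESeq2. The GC trend (48 and 33) and the ratios were chosen after seeing the data. The share of the 5 rows was higher by 0.773 to 2.55 points, and that of miR-378a-3p alone by 0.491. The arm ratio differed by 0.03 to 0.22. No paired analysis was possible because the groups share no animal number. Depth limits miR-378d most.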
